A study of Mus musculus with 16 samples.

Results

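The CD80hi and CD80lo fractions of medullary thymic epithelial cells (mTEC) from mice labelled as Aire knockouts were compared, with 2 arrays of each fraction, so 4 of the 16 arrays of the study. The arrays were chosen by their titles: cells of the AIRE k/o mice sorted by flow cytometry for high surface CD80 (CD80hi) and for low surface CD80 (CD80lo). The same fractions from wild-type mice, again with 2 arrays each, served as the reference, and the remaining 8 arrays held wild-type mTEC labelled without a CD80 sort, dendritic cells, macrophages and cortical epithelial cells (cTEC) of the thymus, 2 arrays each. Total RNA was measured. The labels give no treatment, time point, age, strain, deleted exon or pooling of animals, and do not say whether arrays of a group came from separate mice, so every p-value measures the spread between these arrays, which may be technical. The study concerns the expression of genes of other tissues in the thymus, and this comparison asks which maturation differences of mTEC are seen in cells labelled as lacking Aire.

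Medullary epithelial cells show developing T cells the antigens of peripheral organs, so that self-reactive cells can be removed or diverted. As they mature they raise CD80, CD86, CD40 and MHC class II genes and transcribe a broad set of tissue-restricted genes. Aire is a nuclear protein of the mature, CD80-rich cells that releases transcription of many of these genes, and another part of them does not need Aire.

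Deposited signals are linear array intensities. A difference is the CD80hi minus the CD80lo mean on the log2(signal + 4.8) scale, which understates the change of dim genes, and its limma standard error follows ±. Genes are called higher or lower at a Benjamini-Hochberg adjusted limma p under 0.05 over the 9319 probe sets tested, and rose or fell refers to these calls. The brightest probe set stands for a gene. Fabp9, Il4, Cd80, Cd86, Igf2, Ins2, Actc1, Chgb, Myh7, Mgp, Iigp1, Alas2, Agr2, Pkp2, Blnk, Fzd3, Wnt10b, Sprr2b and Zp2 were read by probe sets whose names mark probes that related sequences can share. The same holds for Timd2 and for the cell markers Flt3, Ighm and Tie1. Pearson's r between the 2 arrays of a fraction, over probe sets, was 0.921 for CD80hi and 0.918 for CD80lo cells. The 3′ to 5′ signal ratio of the GAPDH control, which rises with RNA loss from the 5′ end or with amplification, was 5.53 and 16.2 on the knockout CD80hi arrays and 4.32 and 7.81 on the CD80lo arrays, a range that overlaps between the fractions. Immunoglobulin signal was unequal between the knockout CD80lo arrays. The 48 immunoglobulin probe sets summed to 27786 and 4782 on them and to 3511 and 1990 on the knockout CD80hi arrays, beside 16219 and 21642 on the wild-type CD80lo and 1429 and 2254 on the wild-type CD80hi arrays. Of the 48, 8 were lower in knockout CD80hi cells and none higher. Counts without each array are given where they moved by more than 1.5 times.

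The labels were first set against the sorted protein and the epithelial genes. Cd80, the gene of the protein used for the sort and so no finding, read 79.7 and 104.5 on the knockout CD80hi arrays and 9.5 and 13.7 on the CD80lo arrays. Aire read 1589 and 1385 against 127.3 and 83, a difference of 3.79 ± 0.51 (limma adjusted p = 0.000221), close to the wild-type difference of 3.65 ± 0.51. Where the Aire probes lie with respect to the deletion is not stated, so this signal is no check of the genotype, and knockout stands for the label. The epithelial keratin genes Krt8 (3675 and 2307 in CD80hi, 5085 and 3115 in CD80lo) and Krt18 (905.8 and 669.3, then 2005 and 1819) were bright in both fractions and did not pass the test. On the macrophage arrays Krt8 read 1213 and 172.2 and Krt18 732.8 and 46.4. Epcam, an epithelial adhesion gene, read 118.4 and 300.5 in CD80hi and 193.5 and 343.1 in CD80lo cells, also without a call, and 8.1 to 23.6 on the dendritic cell and macrophage arrays. The claudin genes Cldn3 (138.9 and 136.3 against 294.2 and 165.8) and Cldn4 (767.5 and 530.9 against 1585 and 374.9) had no call. The keratin genes Krt5 and Krt14 were too dim to be tested, at 3.5 to 18.2 and 2 to 3.9 on the knockout arrays.

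Between the knockout fractions 553 probe sets were higher in CD80hi cells (5.93% of those tested) and 640 were lower (6.87%), with 2292 at an unadjusted p under 0.05. Over genes, 446 of 6922 were higher (6.44%) and 503 lower (7.27%), and these shares are the reference for each list count given below. The median difference over all tested probe sets was -0.03. Without knockout CD80hi array 2 the counts fell to 361 higher and 386 lower, and without CD80lo array 1 to 349 and 395. In wild-type cells 744 probe sets were higher (7.98%) and 442 lower (4.74%). Both comparisons share no array, but they share the estimate of the spread of each probe set, so their calls are not independent. The probe sets called the same way in both numbered 325 higher, which is 58.8% of the knockout and 43.7% of the wild-type calls, and 313 lower, which is 48.9% and 70.8%. The wild-type difference had the same sign for 546 of the 553 higher and 570 of the 640 lower knockout calls. Pearson's r of both differences across probe sets was 0.683, as a description, since genes are not independent replicates. Medians move with the comparison that chose the probe sets. The 553 knockout higher calls had a median of 1.95 in knockout and 1.51 in wild-type cells, and the 744 wild-type higher calls 1.12 and 2.12. The 640 knockout lower calls had -1.94 and -1.27, and the 442 wild-type lower calls -1.83 and -1.84.

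**Figure D1:**
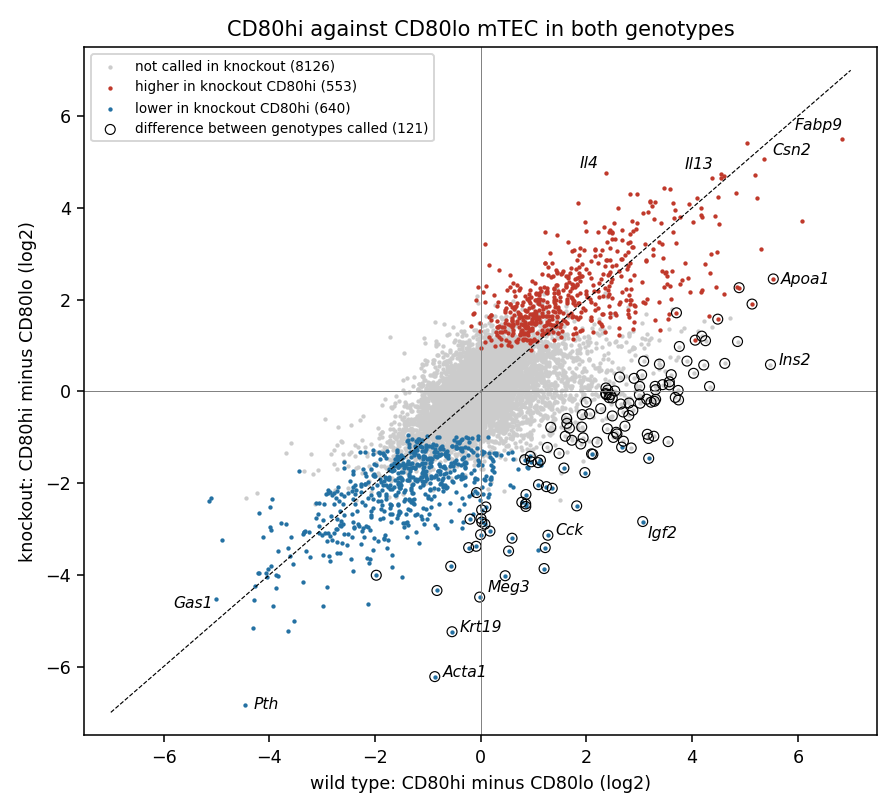
Each point is a probe set, with the CD80hi minus CD80lo difference on the log2 scale in wild-type cells on the horizontal and in knockout cells on the vertical axis; the dashed line marks equal differences. The 553 higher (red) and 640 lower (blue) knockout calls lie mostly along the diagonal, and all 121 ringed probe sets, whose difference depended on genotype, lie below it, such as Igf2 at 3.06 in wild-type and -2.84 in knockout cells.

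The 15 highest differences in knockout CD80hi cells ran from 5.50 to 4.21 and included 3 cytokine genes, Il4, Il13 and Il12a, described with the cytokines. Fabp9, a fatty-acid-binding protein gene of the testis, read 199.2 and 553.7 on the CD80hi arrays and 4.5 and 1.2 on the CD80lo arrays, a difference of 5.50 ± 0.53 (limma adjusted p = 1.96e-05). Saa3, an acute-phase protein gene, read 250 and 440.3 against 1.4 and 5.4 (5.40 ± 0.77, adjusted p = 0.000338). Csn2, which encodes β-casein of milk, read 2869 and 3103 against 84.5 and 85.4 (5.06 ± 0.55, adjusted p = 4.39e-05). For all 3 genes both CD80hi arrays lay far above both CD80lo arrays, and Csn2 was also bright in absolute terms. The gap-junction gene Gjb2 read 1277 and 1205 against 43.1 and 40.2 (4.74 ± 0.33), and Hal, which degrades histidine, 668.5 and 779.7 against 25.5 and 22.7 (4.65 ± 0.42). Timd2 gave 4.44 ± 0.54. Krt20, a keratin gene of gut epithelium (4.31 ± 0.35), Csn3, which encodes κ-casein (4.30 ± 0.45), the kinase gene Blk (4.30 ± 0.49), the diamine oxidase gene Aoc1 (4.25 ± 0.37), the apolipoprotein gene Apoa4 (4.22 ± 0.55) and Prg2, an eosinophil granule protein gene (4.21 ± 0.34), followed. All of these were called higher in wild-type CD80hi cells too, and their differences between genotypes did not pass the test.

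Among cytokine genes, the neighbours Il13 and Il4 rose together. Il13, a cytokine of type 2 immunity, read 624.1 and 259 on the knockout CD80hi arrays and 14 and 8.3 on the CD80lo arrays, a difference of 4.70 ± 0.45 (limma adjusted p = 1.93e-05). In wild-type cells it read 281.6 and 195.3 against 6.3 and 3.9, a difference of 4.61 ± 0.45. The CD80hi arrays of both genotypes overlapped in level and the change between genotypes was 0.09 ± 0.64. Il4, the type 2 cytokine encoded beside it, read 285.6 and 114.9 against 1.2 and 3.1 in knockout cells (4.76 ± 0.50, adjusted p = 3.55e-05) and 77 and 51.6 against 10 and 6.8 in wild-type cells (2.37 ± 0.50). Both knockout CD80hi arrays lay above both wild-type CD80hi arrays for Il4, but the difference between genotypes, 2.39 ± 0.71, did not pass (adjusted p = 0.168). A second Il4 probe set gave 2.01 ± 0.44 in knockout cells. Rad50, a DNA repair gene beside Il13 on the chromosome, rose by 3.01. Il1rn, the interleukin 1 receptor antagonist gene, read 1799 and 3289 against 118.9 and 152.7 (4.13 ± 0.40), and Il12a, an interleukin 12 subunit gene, 283.7 and 253.2 against 12.5 and 4.6 (4.42 ± 0.46). Of 34 cytokine and growth factor genes tested, 6 rose and 5 fell. The median of the list was -0.03 in knockout and 0.62 in wild-type cells, where 13 rose and 3 fell (wild-type shares over all genes, 8.62% and 4.84%). Without knockout CD80hi array 2 the fallen were 3.

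The 250 bases before the annotated starts of Il13 and Il4 (chr11:53634703-53634952 and chr11:53617339-53617588, minus strand) and of the casein genes Csn2 (chr5:87699426-87699675, minus strand) and Csn1s2a (chr5:87774200-87774449, plus strand) are shown, since the members of each pair are near neighbours of which the first pair rose together and the second did not. They are from RefSeq, build GRCm38.p6. Capitals mark the matches to the searched motifs TATAAA (the TATA box), TGANTCA (AP-1 site), a NF-κB motif and a interferon-response motif, on either strand. In Il13, TATAAA starts 29 bases before the gene's start, and a match on the other strand that starts 31 bases before it overlaps it. The other 3 hold no match.
Il13: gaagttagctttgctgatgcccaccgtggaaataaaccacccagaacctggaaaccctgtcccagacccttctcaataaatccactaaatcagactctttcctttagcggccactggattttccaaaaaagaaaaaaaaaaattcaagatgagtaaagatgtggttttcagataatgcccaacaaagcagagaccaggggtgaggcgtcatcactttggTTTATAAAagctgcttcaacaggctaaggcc
Il4: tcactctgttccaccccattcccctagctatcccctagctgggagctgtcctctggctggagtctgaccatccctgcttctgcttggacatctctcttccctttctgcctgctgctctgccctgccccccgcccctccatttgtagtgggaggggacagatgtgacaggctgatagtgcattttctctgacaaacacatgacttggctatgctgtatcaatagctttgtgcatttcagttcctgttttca
Csn2: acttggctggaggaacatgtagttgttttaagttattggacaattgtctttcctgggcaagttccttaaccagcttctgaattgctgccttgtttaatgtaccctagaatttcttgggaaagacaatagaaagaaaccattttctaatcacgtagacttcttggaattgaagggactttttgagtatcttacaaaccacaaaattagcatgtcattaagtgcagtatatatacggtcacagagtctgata
Csn1s2a: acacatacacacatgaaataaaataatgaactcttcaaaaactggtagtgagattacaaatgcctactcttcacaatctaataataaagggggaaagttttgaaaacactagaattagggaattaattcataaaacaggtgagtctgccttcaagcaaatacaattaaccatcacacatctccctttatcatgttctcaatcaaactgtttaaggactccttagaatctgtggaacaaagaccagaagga
A match is only a match of letters, and none says nothing of binding. Over the window from 250 bases before to 50 after the start, TATAAA on either strand was found for 15.2% of 341 higher genes, 10.5% of 390 lower genes and 9.72% of all 5554 tested genes with an entry. TGANTCA was found for 7.04%, 6.92% and 5.98%, the NF-κB motif for 5.57%, 5.38% and 6.14%, and the interferon-response motif for 4.11%, 4.62% and 3.24%. The median number of CG dinucleotides in the window was 14 for higher genes, 17 for lower genes and 20 for all. These shares are descriptions with no test.

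Neighbouring called genes were counted, with no test. A gene called higher had another called gene of that direction within 200 kb in 27.5% of cases, and 18.8% of all tested genes had one. For lower genes the shares were closer to each other, at 24.5% and 20.3%. The largest run held 7 S100 calcium-binding protein genes on chromosome 3 (S100a1, S100a13, S100a14, S100a3, S100a4, S100a5 and S100a8). The next held 6 genes of the MHC class II region on chromosome 17 (Tapbp, H2-Oa, H2-DMb2, H2-DMb1, H2-Ob and H2-Eb2). Both are families whose members also lie together by origin, and probes can be shared between similar members. Tph1, which makes serotonin, and the acute-phase genes Saa3 and Saa2 formed a run on chromosome 7, and Prg2, Prg3 and Ube2l6 formed one on chromosome 2.

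Genes by which a cell engages T cells were higher in knockout CD80hi cells. Of 9 costimulation and checkpoint ligand genes tested, 6 rose, none fell and 3 did not pass. The 6 include Cd80, the gene of the sort, and the count was also 6 without each knockout array in turn. Cd86, the partner of CD80 as a ligand of CD28, read 193.2 and 177.9 against 5.4 and 20 (3.58 ± 0.48, limma adjusted p = 0.00022). Cd40, the receptor for T-cell CD40 ligand, read 721.7 and 898.6 against 113 and 148.7 (2.59 ± 0.31). Both fractions were far apart for both genes. The ligand genes Tnfsf9 (3.11 ± 0.42) and Cd70 (2.75 ± 0.42) and the maturation marker Cd83 (2.08 ± 0.35) rose as well, the last with 734.1 and 659.8 against 206.8 and 124.8. In wild-type cells Cd83 gave 0.65 ± 0.35, without a call, and the difference between genotypes was 1.43 ± 0.50 (adjusted p = 0.291). The median of this list was 2.56 in knockout and 1.85 in wild-type cells, beside -0.03 over all genes in each.

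Of 15 MHC class II and peptide loading genes, 6 rose and 1 fell. H2-Ob, a subunit of the H2-O protein that restrains peptide loading, read 405.9 and 219.1 against 15.5 and 31.4 (3.48 ± 0.50, limma adjusted p = 0.000363). Its partner H2-Oa rose by 2.96 ± 0.56, and H2-DMb2 and H2-DMb1, subunits of the loading catalyst, by 2.18 ± 0.50 and 1.53 ± 0.44. The proteases Ctsh and Ctss, which trim class II antigens, rose by 3.43 ± 0.43 and 2.52 ± 0.40. Ctsl, known as a protease of cortical epithelium, was the gene that fell, from 2484 and 3297 in CD80lo to 310.3 and 638 in CD80hi cells (-2.67 ± 0.49). In these data Ctsl read 1249 and 2960 in cTEC and 3006 and 4049 in wild-type CD80lo mTEC. The abundant class II chains did not pass the test: H2-Aa read 8959 and 8328 against 5934 and 4555 (0.73, adjusted p = 0.748) and H2-Ab1 4725 and 4020 against 2586 and 1974 (0.95 ± 0.39, adjusted p = 0.141). Of 17 cathepsin and lysosomal protease genes 3 rose, Ctsz at 2.06 ± 0.36 beside Ctsh and Ctss, and Ctsl fell.

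Of 22 medullary epithelium genes 7 rose, Cd80 and Aire among them, and Pdpn fell (-2.18 ± 0.45). Hdc, which makes histamine and marks mature mTEC, read 4171 and 3224 against 228.9 and 191.9 (4.10 ± 0.64). Fezf2, another regulator of tissue genes in mTEC, read 2489 and 1149 against 651 and 251.2 (2.05 ± 0.61, limma adjusted p = 0.0412). Without knockout CD80hi array 1 the medullary higher count was 4, and Pdpn lost its call without CD80lo array 2. Of 19 TNF superfamily genes 6 rose and none fell, with Tnfrsf9, the receptor of the Tnfsf9 ligand, at 3.49 ± 0.47 and Tnfrsf11b, the soluble decoy receptor of RANK ligand, at 2.61 ± 0.46. In the NF-κB pathway, which relays RANK and CD40 signals in mTEC, 4 of 19 rose (Traf1, Traf6, Birc2 and Nfkbib) and 3 fell (Bcl3, Traf5 and Nfkbiz). Traf6, an adaptor of both receptors, read 1010 and 1796 against 204 and 326.9 (2.36 ± 0.47), and Bcl3 read 114.9 and 78.7 against 473.2 and 378.4 (-2.10 ± 0.38). The pathway's 4 higher calls fell to 2 without CD80hi array 1, CD80hi array 2 or CD80lo array 2, and to 1 without CD80lo array 1, which also left 1 of the 3 lower calls.

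Chemokine genes went both ways, with 4 of 23 higher and 6 lower. Ccl9 rose by 3.05 ± 0.33 and Cxcl13, which attracts B cells, by 2.09 ± 0.39, and Ccl5 and Ccl22 rose too. Without CD80hi array 1 or CD80lo array 2 the higher count was 2. Ccl11, the eosinophil attractant eotaxin, read 7.7 and 18.6 against 199.2 and 171.9 (-3.47 ± 0.47), and Cxcl12, the attractant of early thymocytes, 9.5 and 22.3 against 79.4 and 249.9 (-2.90 ± 0.59). Cxcl12 lost its call without CD80lo array 2 (limma adjusted p up to 0.0667 over the alternatives).

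Tissue genes were listed by their earlier reported dependence on Aire, from general knowledge. The lists of Aire targets and of Aire-independent antigens were chosen with earlier results of these data known. Their counts are therefore descriptions and no independent check of these reports. Of 22 earlier reported Aire targets, 3 rose in knockout CD80hi cells (Apoa4, Apoa1 and S100a8), Chrna1 fell and 18 did not pass, and 2 fell without CD80lo array 2. In wild-type cells 20 of the 22 rose, and for 11 the difference between genotypes was called lower (1.23% of all genes). The list's median was 0.30 in knockout and 3.23 in wild-type cells. Ins2, an insulin gene, read 0.3 and 12.6 on the knockout CD80hi arrays, 1.9 and 1.1 on the knockout CD80lo arrays, and 294.2 and 238.5 against 2.2 and 0.4 in wild-type cells. The knockout fractions overlapped and their difference, 0.58 ± 0.50, did not pass (limma adjusted p = 0.549). Its difference between genotypes was -4.90 ± 0.71 (adjusted p = 0.00405; 0.0508 with a constant of 1). Apoa1, the main protein of high-density lipoprotein, rose in both, by 2.45 ± 0.38 in knockout and 5.54 ± 0.38 in wild-type cells, and its genotype difference of -3.08 ± 0.54 (adjusted p = 0.0122) lost its call in 6 of 21 alternatives.

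Of 18 antigens reported as Aire-independent, 10 rose and 2 fell (Pth and Ccn3), with a median of 1.73 in knockout and 2.15 in wild-type cells. Gad1, which makes the transmitter GABA, read 110.9 and 248.7 against 5.8 and 7.8 (3.89 ± 0.62, limma adjusted p = 0.000806), with 3.07 ± 0.62 in wild type. Maoa, a monoamine oxidase gene, rose by 2.95 ± 0.34, and Resp18, a neuroendocrine secretory protein gene, by 2.66 ± 0.45. Tg, the thyroid hormone precursor gene, rose by 2.31 ± 0.38 but was dim. It read 23.8 and 22.7 against 0.7 and 1 in knockout cells, and 15.4 or less on every array of the other groups. Only the knockout CD80hi arrays exceeded the level set for testing, so the group called higher also admitted Tg to the test. Without any one knockout array 7 to 10 of the list rose.

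By organ, counts of higher calls were mostly smaller in knockout than in wild-type cells and counts of lower calls often larger, such as 6 against 0 for liver, 4 against 1 for pancreas and 2 against 0 for lung and kidney genes, which compares counts and not tests. Shares over all genes moved the same way, with 6.44% higher and 7.27% lower in knockout and 8.62% and 4.84% in wild-type cells. Of 12 salivary and lacrimal gland genes only Klk1b11, a kallikrein, rose in knockout cells (2.22 ± 0.37) and 10 rose in wild-type cells. Of 7 mammary genes Csn2 and Csn3 rose in knockout and 5 in wild-type cells. The milk casein gene Csn1s2a, close to Csn2 on the chromosome, gave 0.11 ± 0.38 in knockout and 4.33 ± 0.38 in wild-type cells. Of 31 intestine and stomach genes 11 rose in knockout and 20 in wild-type cells, among them Krt20, Apoa4 and the membrane mucin gene Muc3 (2.79 ± 0.39). Without CD80hi array 1 the 11 were 6, and without CD80lo array 2 they were 7. Cck, the gut hormone cholecystokinin gene, fell, and 2 of the list fell without CD80lo array 1. The liver and plasma protein list had 12 higher and 6 lower calls among 45 genes, with the antithrombin gene Serpinc1 at 3.09 ± 0.39 and Rbp4, the retinol carrier gene, at -3.38 ± 0.39. The 6 lower calls were 1 to 4 without each array in turn (1 without CD80hi array 1, 2 without CD80hi array 2 or CD80lo array 2). In wild-type cells 22 rose and none fell.

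Of 29 endocrine genes 6 rose and 3 fell, and without CD80lo array 1 only 2 rose. Without CD80hi array 2 or CD80lo array 2 the higher count was 3. On the nervous system and eye list 5 of 31 rose, with no lower call: Syt1, a synaptic vesicle protein gene (3.49 ± 0.38), Tph1 (3.26 ± 0.49), Gad1, Rom1 and Calb1. Of 17 testis and germ cell genes 3 rose (Fabp9, Zp2 and Calm4). Of 25 pancreas genes only Iapp rose, and Chga, Scg2, Chgb and Isl1 fell. Chga, which encodes the hormone-granule protein chromogranin A, read 97 and 39.8 against 2322 and 437.1 (-3.91 ± 0.67). Of 18 skin genes Krt10 and Calm4 rose and Sprr2b fell, and of 16 lung and kidney genes Calb1 rose and Cyp2f2 and Aqp1 fell. The lung and kidney share of higher calls, 6.25%, was near the 6.44% over all genes, and 12.5% were lower beside 7.27%. Without CD80lo array 2, 3 skin genes rose. Several of these calls rested on individual arrays: Iapp, Calb1, Calm4, Rom1, Krt10 and Aqp1 each lost the call without at least 2 of the knockout arrays taken in turn. A second Aqp1 probe set went the other way, at 1.21 ± 0.48 without a call. Aqp1 also lost its call with the mean over its probe sets.

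**Figure D2:**
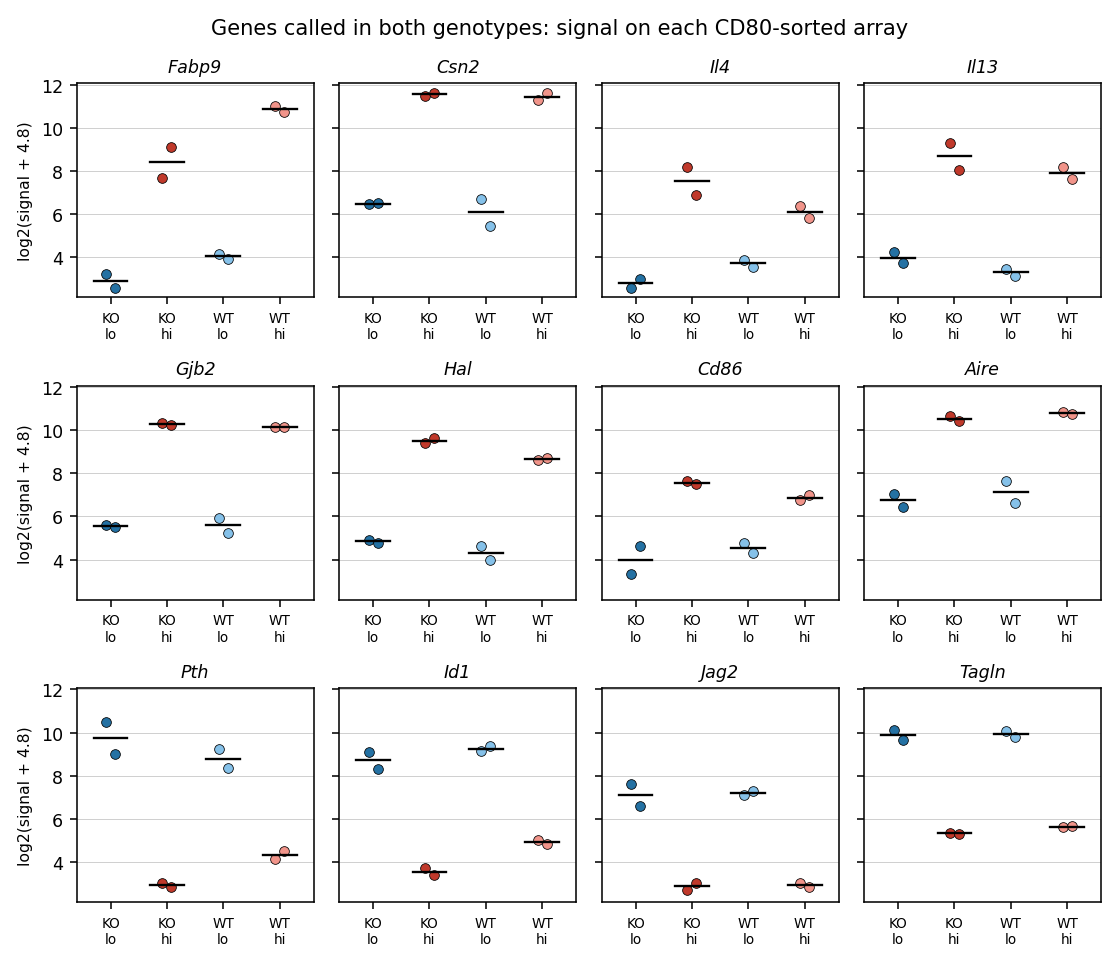
Signals of 12 genes called in both genotypes, as log2(signal + 4.8), on each knockout (KO) and wild-type (WT) CD80lo and CD80hi array; points are arrays and bars are means of 2. The first 8 genes are higher in CD80hi cells, such as Csn2 at 2869 and 3103 against 84.5 and 85.4 in knockout cells, and Pth, Id1, Jag2 and Tagln are lower.

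Of the genes that were lower in knockout CD80hi cells, the parathyroid hormone gene Pth had the largest difference. It read 3.3 and 2.4 on the CD80hi arrays and 1455 and 516.8 on the CD80lo arrays (-6.84 ± 0.49, limma adjusted p = 3.01e-06), and in wild-type cells 12.9 and 18.1 against 595.3 and 321 (-4.46 ± 0.49). The fractions did not overlap in either genotype. Id1, an inhibitor of transcription factors induced by BMP signals, read 8.4 and 5.7 against 549.6 and 312.2 (-5.15 ± 0.38). F3, the tissue factor gene of blood clotting, read 19.2 and 23.6 against 722.1 and 605.9 (-4.67 ± 0.46), and Avil, an actin regulator gene of tuft cells, 30.5 and 7.6 against 714.3 and 371.1 (-4.64 ± 0.48). Gas1, a growth-arrest surface protein gene, gave -4.53 ± 0.55. These 5 genes were lower in wild-type CD80hi cells as well.

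Genes of the Notch and BMP pathways that changed were mostly lower in CD80hi cells, and Wnt genes went both ways. In the Notch pathway, in which ligands on a cell activate receptors on its neighbour, 6 of 13 genes fell and Rbpj, the DNA-binding partner of Notch, rose. The ligand genes Jag2 (1.8 and 3.3 against 189.4 and 93.3, -4.24 ± 0.57) and Dll1 (31.4 and 31 against 324.2 and 357.3, -3.26 ± 0.39) fell. So did the target genes Hes1 (76.5 and 70.4 against 786 and 620.9, -3.17 ± 0.53) and Hey1 (-2.22 ± 0.38). The ligand and target arrays of the fractions did not overlap. Of 20 BMP, TGF-β and Id genes 8 fell, including the Id genes Id1 and Id3 (-2.96 ± 0.48), the inhibitory Smad6 (-1.73 ± 0.31) and the secreted matrix protein gene Tgfbi (-2.44 ± 0.34), and Inhbb rose. With only the 4 knockout arrays in the fit, 4 of the BMP list fell. Of 23 Wnt genes 4 fell, with the receptor genes Fzd2 (-4.30 ± 0.35) and Fzd3 (-1.62 ± 0.34), the ligand gene Wnt4 and Dkk3, and the ligand genes Wnt3 (1.88 ± 0.37) and Wnt10b (1.84 ± 0.36) rose. Without CD80hi array 1 or CD80lo array 1, 2 Wnt genes fell. Rbpj and Inhbb lost their calls without CD80hi array 2 or CD80lo array 1. The list medians were -0.81 for Notch, -0.96 for BMP and 0.11 for Wnt in knockout cells and -0.54, -0.76 and -0.11 in wild-type cells, all beside -0.03 over all genes.

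Matrix and contractile genes had the largest number of lower calls of any list, 17 of 39, with Col14a1 the gene that rose, a call lost without CD80lo array 1. The actin-binding Tagln read 35.5 and 35 in CD80hi and 1095 and 807 in CD80lo cells (-4.56 ± 0.42). Acta2, smooth-muscle actin, read 35.9 and 46.8 against 943.8 and 824.4 (-4.27 ± 0.40). Both groups were tight and far apart. The matrix inhibitor of calcification Mgp (-4.00 ± 0.39), the collagen gene Col6a1 (-3.27 ± 0.36) and the collagen-binding Fmod (-4.17 ± 0.42) followed. The list's 39 genes summed to 4512 and 5039 on the CD80hi arrays and 11910 and 11110 on the CD80lo arrays. The fibroblast genes Pdgfra (26.4 and 30.8 against 7.6 and 22.9), Col1a1 (19.3 and 56.4 against 38 and 85.6) and Dcn (514.4 and 559.7 against 871.1 and 1223) gave no call on their brightest probe sets. A second, dimmer Col1a1 probe set fell, with 6.3 and 1.8 against 37 and 58.3 (-2.585 ± 0.39, limma adjusted p = 0.000537). Its difference between genotypes was -2.60 ± 0.55 (limma adjusted p = 0.038). A part of fibroblast RNA in these counts was not tested. Fewer cells of a kind and less RNA per cell cannot be told apart in these sorted bulk samples. In wild-type cells 12 of the 39 fell and 2 rose.

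Of 34 immediate early and stress genes 11 fell and none rose, with a median of -0.94 in knockout and -0.75 in wild-type cells. Ier3, an early response gene, read 110 and 88.1 against 1832 and 885.9 (-3.63 ± 0.54), and Ccn2 and Ccn1, targets of growth factor and mechanical signals, fell by 4.02 ± 0.62 and 3.06 ± 0.53 on the log2 scale. Myc gave -1.83 ± 0.31. The count of lower calls was 5 without CD80lo array 1 and 7 without CD80hi array 2.

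Interferon-response genes were lower too: 9 of the 27 genes on the class I and interferon list fell, and the class I genes H2-M3 (1.87 ± 0.47) and Tapbp (1.08 ± 0.31) rose. Ifit3 read 8.2 and 23.5 against 409.3 and 1225 (-5.22 ± 0.51, limma adjusted p = 1.96e-05). The GTPase genes Gbp2 (63.8 and 68 against 553.3 and 716.5, -3.17 ± 0.29), Iigp1 (-3.04 ± 0.39) and Mx2 (-2.93 ± 0.39) had the same direction. Ifit3 was higher on array 2 than on array 1 in both fractions, and the fractions did not overlap. Both higher calls were lost without CD80hi array 1, CD80hi array 2 or CD80lo array 1, and 1 without CD80lo array 2. In wild-type cells 8 of the list fell and none rose. Among 15 thymic epithelial transcription factor genes 4 fell and none rose: Klf5 (-2.77 ± 0.37), Hes1, Sox4 (-2.88 ± 0.60) and Pax1 (-2.03 ± 0.46).

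The difference between fractions differed by genotype for 121 probe sets, each lower in the knockout comparison (1.3% of those tested), and for 0 in the other direction (0%), with 775 at an unadjusted limma p under 0.05. The count was 44 with a constant of 1 and 216 with a constant of 17.3, 72 after centring each array on its median, and 34 to 69 without knockout CD80hi array 1 (69), knockout CD80lo array 1 (60), wild-type CD80hi array 1 (34) or 2 (42) or wild-type CD80lo array 1 (68) or 2 (37). Of the 121, 72 rose in wild-type cells with no call in knockout cells, 6 rose in both, 42 fell in knockout cells and 1 had no call in either. Of the 42, 10 rose in wild-type cells, 31 had no wild-type call and 1 fell. Their median difference was -2.68 in knockout and 0.80 in wild-type cells. The test compares the fractions, and the genotypes were not tested within a fraction. In level, both knockout CD80lo arrays exceeded both wild-type CD80lo arrays for 37 of the 42 probe sets, and both knockout CD80hi arrays lay below both wild-type CD80hi arrays for 39. These 42 were chosen by the test, so their levels are descriptions.

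Igf2, an imprinted fetal growth factor gene, had the lowest value. It read 41.9 and 117.5 on the knockout CD80hi arrays and 670.9 and 427.7 on the CD80lo arrays (-2.84 ± 0.43), and in wild-type cells 717.1 and 481.2 against 65.2 and 66.8 (3.06 ± 0.43). The direction was opposite, and the difference between genotypes was -5.90 ± 0.61 (limma adjusted p = 0.000467). Cck read 0.6 and 1.2 against 56.9 and 35.9 in knockout and 92.6 and 93.5 against 33.1 and 38.6 in wild-type cells, so that the CD80lo fractions overlapped and the CD80hi fractions were far apart (-4.41 ± 0.46 between genotypes, adjusted p = 0.000467). Cdkn1c, an imprinted inhibitor of the cell cycle, read 313.1 and 250.5 against 677 and 637.8 in knockout and 821.1 and 850.1 against 119.2 and 136.6 in wild-type cells (-3.88 ± 0.42, adjusted p = 0.000595). Its knockout difference alone, -1.22 ± 0.30, lost its call without CD80hi array 2 or either CD80lo array.

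Meg3, an imprinted non-coding RNA, was high in a single CD80-sorted group. It read 284.1 and 139 on the knockout CD80lo arrays and 3.2 to 5.9 on the other 12 arrays outside the mTEC without a CD80 sort, where it read 5.6 and 19.1. Its knockout difference was -4.49 ± 0.43 and the difference between genotypes -4.47 ± 0.61 (limma adjusted p = 0.00267). Outside the knockout CD80lo group only the array at 19.1 exceeded the level set for testing. The group in which Meg3 was high therefore also admitted it to the test. Gsto1, a glutathione transferase gene, read 132.1 and 87.2 against 2106 and 1568 in knockout and 254.6 and 221.4 against 171.6 and 170.4 in wild-type cells (-4.48 ± 0.50, adjusted p = 0.000595). Here too the knockout CD80lo arrays were the high ones. Ltf, which encodes the iron-binding milk and granule protein lactoferrin (-5.06 ± 0.79), and Lgals3, a galectin gene (-4.01 ± 0.66), were likewise highest on the knockout CD80lo arrays among the CD80-sorted fractions. Lgals3 is bright in other thymic cells, with 303.6 to 570.9 on the dendritic cell and macrophage arrays.

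**Figure D3:**
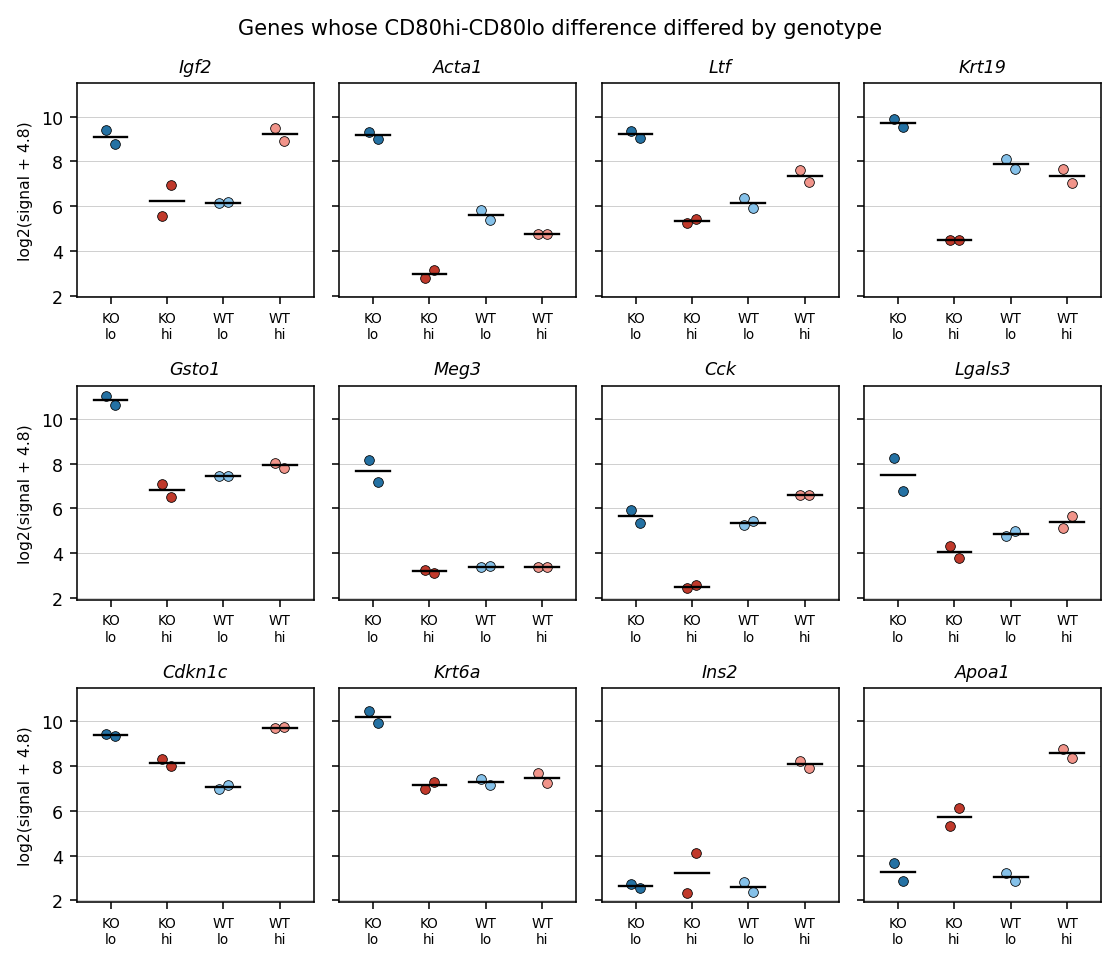
Signals of 12 genes whose CD80hi minus CD80lo difference differed by genotype, as log2(signal + 4.8), with points for arrays and bars for means of 2. Acta1 and Krt19 are highest in knockout CD80lo cells, at 636.3 and 508.1 and at 948.8 and 741.2, and Ins2 is high only in wild-type CD80hi cells, at 294.2 and 238.5.

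By count, muscle genes made up the list with the most such differences beside the Aire targets: 8 of 41 had a lower difference in knockout cells, beside 1.23% of all genes. Shorter lists had larger shares, with 5 of 12 salivary and lacrimal gland, 2 of 7 mammary and 4 of 18 keratin genes. In the knockout comparison 11 fell and 3 rose (Myh7, Cacna1s and Tnnt2), and in wild-type cells 2 fell and 12 rose. Acta1, the actin of skeletal muscle fibres, read 2 and 3.9 on the knockout CD80hi arrays and 636.3 and 508.1 on the CD80lo arrays (-6.22 ± 0.32, limma adjusted p = 1.45e-07), the smallest p of the named genes. In wild-type cells it read 21.9 and 22.2 against 52.4 and 37.3 (-0.87 ± 0.32), and the genotypes differed by -5.35 ± 0.45 (adjusted p = 0.000103). Actc1, cardiac actin, read 30.8 and 29.9 against 309.2 and 294.5 in knockout and 110.5 and 133.1 against 138.8 and 106.4 in wild-type cells (-3.12 ± 0.41 between genotypes), and its second probe set fell as well. Myl1, a myosin light chain gene, read 9.1 and 21.6 against 279.7 and 250.7 in knockout cells and 24.6 to 47.4 over both wild-type fractions (-3.25 ± 0.50). Chrna1, the muscle acetylcholine receptor subunit gene, read 2.1 and 0.5 against 23.8 and 18 in knockout and 23.7 and 24.8 against 11.4 and 4.5 in wild-type cells (-3.32 ± 0.55). Myh7, a slow-fibre myosin gene, went the other way, with 394.5 and 241.9 against 32 and 45.5 in knockout cells (2.87 ± 0.37), and rose in wild-type cells too.

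Keratin genes also split. Krt20 and Krt10 rose, and Krt19, Krt6a, Krt7 and Krt4 fell, of 18 tested, with 2 lower calls without CD80lo array 1. Without CD80hi array 2 or CD80lo array 1 the higher calls were 1, and without CD80lo array 2 they were 4. Krt19, a keratin of simple and ductal epithelia, read 17.5 and 17.5 on the knockout CD80hi arrays and 948.8 and 741.2 on the CD80lo arrays (-5.24 ± 0.45), and 198.1 and 123.9 against 266.9 and 199.3 in wild-type cells (-0.54 ± 0.45). The genotypes differed by -4.70 ± 0.64 (limma adjusted p = 0.00264), and a second probe set of the gene gave -2.87 (adjusted p = 0.0193). Krt6a, a keratin of activated stratified epithelium, read 121.3 and 152.9 against 1392 and 968.4 in knockout cells and 136.8 to 203.4 in wild-type cells. In the epithelial junction list Gjb2 rose (2 genes without CD80lo array 1) and Dsp, Cdh3 and Pkp2 fell, of 22, and each of the 3 lost its call without 3 or more of the knockout arrays taken in turn. Of 14 tuft, microfold and ciliated cell markers Ccl9 and Ncf1 (4.03 ± 0.45) rose and Avil, Agr2 and Pou2f3 fell, of which 1 fell without CD80hi array 1 or either CD80lo array. Of the 19 named genes with a genotype difference, 8 kept its call in all alternatives run, namely Acta1, Actc1, Cck, Cdkn1c, Gsto1, Igf2, Krt19 and Meg3.

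Markers of other thymic cells were set beside these results. Of 20 dendritic cell genes 7 rose and Tcf4 fell, with Irf4 (1695 and 2352 against 161.5 and 194.8, 3.46 ± 0.41), Batf3 (2.55 ± 0.49), Ccr7 (2.49 ± 0.43) and Irf8 (1.75 ± 0.39). Without CD80hi array 1 there were 3, and without CD80lo array 2 there were 4, and Tcf4 lost its call without either. The list summed to 13001 and 9043 in CD80hi and 4745 and 3537 in CD80lo cells, and to 17541 to 22820 on dendritic cell arrays. Itgax, which defines dendritic cells, read 37.3 and 47.7 in CD80hi and 41.7 and 23.6 in CD80lo cells, far below the 1188 and 1296 of dendritic cells, and was not called (0.37 ± 0.36, limma adjusted p = 0.608). Zbtb46, another dendritic cell marker, read 40.2 and 44.6 against 18.3 and 19.6, beside 34.3 and 143.3 in dendritic cells, so that both CD80hi arrays lay above a dendritic cell array (0.99 ± 0.58, adjusted p = 0.33). Flt3 read 237.4 and 105.1 against 132.1 and 42.1, beside 1427 and 1294 in dendritic cells (1.03 ± 0.48, adjusted p = 0.201). Of 29 macrophage genes 3 rose (Mrc1, Laptm5 and Cd68) and 4 fell (Pltp, Lgals3, Apoe and Cd14), and without CD80hi array 2 none rose and without CD80lo array 2 only 1. The macrophage list summed to 6807 and 7597 in CD80hi, 10123 and 7548 in CD80lo cells and 25291 to 47560 on macrophage arrays. Csf1r read 40.3 and 41.8 against 44.7 and 31.5, beside 1163 and 2325 in macrophages, and C1qa 30 and 25.5 against 21.3 and 37, beside 2144 and 2666.

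Of 24 thymocyte genes only Ly9 rose, and the list summed to 1962 and 1813 against 1527 and 1084. Thymocyte markers had no call. Cd3e read 20.1 and 6.2 against 24.3 and 12.5, Cd3g 24.4 and 19.7 against 143.2 and 49.4 (-1.74 ± 0.80, limma adjusted p = 0.197), Cd8a 99.9 and 26.3 against 41.7 and 36.5, and Rag1 43.3 and 35.1 against 44.1 and 39. Of 16 B cell genes Blk, a kinase gene (4.30 ± 0.49), and Blnk, its adaptor's gene (1.76 ± 0.47), rose. Blnk lost its call without CD80hi array 2 or either CD80lo array, and 1 gene of the list rose without CD80hi array 2 or CD80lo array 2. The list summed to 2577 and 2192 in CD80hi and 8066 and 847.2 in CD80lo cells, and Ighm read 720.3 and 241 against 7096 and 266.5, beside 1709 and 2459 on the wild-type CD80lo arrays. Other B cell markers had no call, with Cd79b at 98.6 and 64.2 against 53.2 and 21.6 (limma adjusted p = 0.0959), Ms4a1 at 53.6 and 61.7 against 28.3 and 48, and Pax5 at 20.7 and 23.8 against 10.7 and 2.9. Of 19 endothelial genes 4 fell, with Cav1 (5.7 and 3.5 against 102.4 and 159.2, -3.83 ± 0.56), Mcam, Eng and Selp, and 2 to 8 fell without any one array (8 without CD80lo array 1, 2 without CD80hi array 2 or CD80lo array 2). The list summed to 414.4 and 528.9 against 657 and 1392. Cdh5, a defining endothelial gene, read 0.9 and 2 in CD80hi and 4.3 and 40 in CD80lo cells (-1.70 ± 0.73, limma adjusted p = 0.162). Other defining genes had no call either. Tie1 read 3.4 and 5 against 5.2 and 37.1, Pecam1 49 and 54.7 against 27.9 and 66.5, and Kdr 10.4 and 15.2 against 5.1 and 25.1. For these genes and for Selp, at 12.3 and 136.4 in CD80lo cells, array 2 was the higher of both knockout CD80lo arrays. The wild-type CD80lo arrays read 50.7 and 25.6 for Cdh5 and 146 and 112.4 for Selp. Of 16 erythroid genes Alas2 and Epb42 rose (1 without CD80hi array 2 or CD80lo array 1, 3 of the list without CD80lo array 2), with sums of 745.7 and 675.9 against 557.3 and 536.2. The part of such cells in the results was not tested beyond these values.

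Of 446 genes higher in knockout CD80hi cells, 18.6% had a mean level in cTEC, dendritic cells or macrophages above their CD80hi mean, and of 503 lower genes 34.6% had one above their CD80lo mean, where 56.7% of all tested genes had one above the brighter fraction. Called genes were chosen for a high level in a knockout fraction, which itself lowers these shares. The shares are therefore no measure of how specific the genes are to mTEC. Of 11 cortical epithelium genes 2 rose (Cd83 and Ly75) and 3 fell (Ctsl, Cxcl12 and Pax1), with 1 higher without each knockout array in turn and 1 lower without CD80lo array 2. Of 48 cell cycle genes none rose and Cdkn1c and Cdk4 fell, and of 17 ribosome and housekeeping genes none was called, the smallest p being that of Pgk1, a glycolysis enzyme gene (0.86 ± 0.31, limma adjusted p = 0.0884), with medians of -0.08 and -0.10. Both cell cycle calls were lost without CD80hi array 2 or either CD80lo array.

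**Figure D4:**
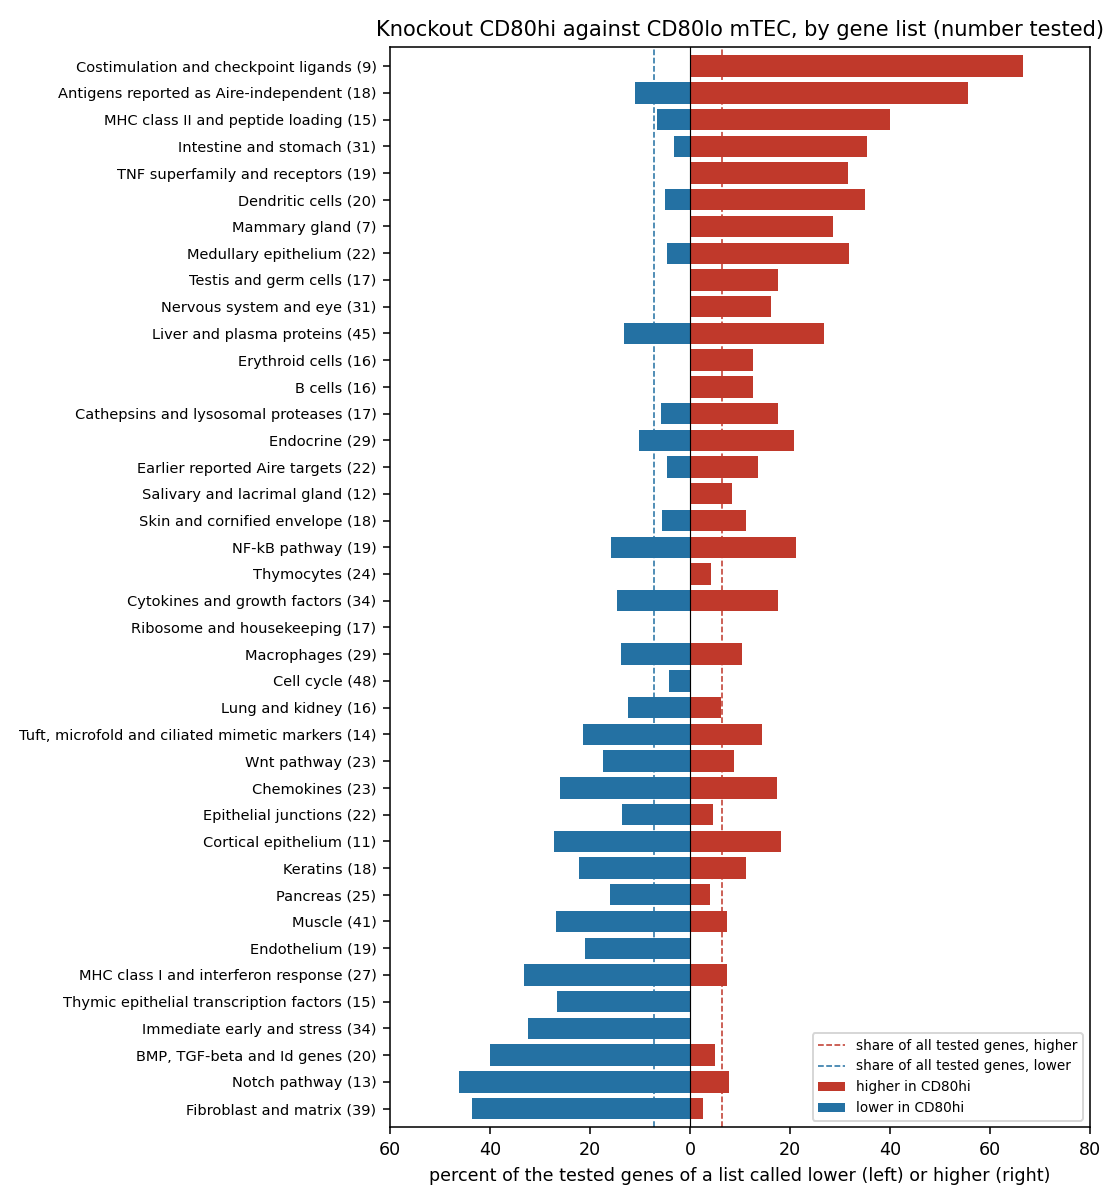
For each of 40 gene lists, the percent of tested members called higher (red, to the right) or lower (blue, to the left) in knockout CD80hi cells, with the shares over all tested genes, 6.44% and 7.27%, as dashed lines. Costimulation genes reach 66.7% higher, and Notch pathway genes 46.2% lower; 92 genes are in more than 1 list.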

How the data were processed

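The values deposited by the authors are linear array intensities of 12488 Affymetrix probe sets on 16 arrays. Every array had a trimmed mean close to 100.1, leaving out 2% at each end. No label or header names the authors' software or scaling target. After removal of 66 control probe sets, 9319 of the others that exceeded 17.3, the 40th percentile of all values, on at least 2 arrays were tested. Values were taken as log2(intensity + 4.8), where 4.8 is the 20th percentile. limma 3.58.1 (R 4.3.3) was fitted with trended variance over all 16 arrays in 8 groups, with 8 residual degrees of freedom, and was tested on simulated data. Of the probe sets, 10833 had 1 gene symbol, 396 several and 1193 none listed; only the first kind was named. The 2 arrays per group limit the precision.

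Named genes were the 15 highest and 15 lowest differences past the threshold, up to 4 called members of smallest p from each list, the 6 largest from the genotype comparison and from genes changed alike in both genotypes, and Aire, Cd80, Il13, Ins2 and Gad1. Further called list members, chromosome neighbours and defining markers of cell types were named after their values were seen. The comparison and the 40 gene lists were chosen with earlier results of these data known. Lists are described by counts and medians, without a set test. Alternatives were quantile normalisation, median centring, other constants and filters, no variance trend, fewer arrays in the fit, a replicate block and leaving out arrays. Promoter sequences and positions are from RefSeq (GRCm38.p6).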

Additional observations from a re-analysis of the deposited data

Results flagged for a closer look

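The difference between CD80hi and CD80lo cells was itself different in knockout and wild-type cells for 121 probe sets by the limma test of the interaction. Each of the values that follow is the knockout minus the wild-type difference on the log2(signal + 4.8) scale. Among growth and imprinted genes it was -5.90 for Igf2, -4.47 for Meg3, -3.88 for Cdkn1c and -3.51 for Igfbp3, which binds insulin-like growth factors. Among muscle genes it was -5.35 for Acta1, -3.32 for Chrna1, -3.25 for Myl1 and -3.12 for Actc1. Among epithelial genes it was -4.70 for Krt19, -3.22 for Krt6a and -2.78 for the transcription factor gene Klf5. Among hormone, granule and plasma protein genes it was -5.06 for Ltf, -4.90 for Ins2, -4.41 for Cck, -3.29 for Rbp4, -3.08 for Apoa1 and -2.62 for Chgb. It was -4.48 for Gsto1 and -4.01 for Lgals3. Chgb lost this call in 16 of its 21 alternatives and Klf5 in 8.

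The 18S ribosomal RNA control, which is outside the gene comparison, read 1893 on knockout CD80lo array 1 and 286.6 on array 2, against 562.0 and 48.2 on the knockout CD80hi arrays and 147.7 to 376.3 on the wild-type sorted arrays. Its part in the results was not tested.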

How the results depend on the processing

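The counts of 553 higher and 640 lower probe sets became 301 and 328 with only the 4 knockout arrays in the fit, 233 and 299 without array 1 of both knockout groups, and 247 and 299 without array 2 of both. Without each knockout array in turn they ranged from 349 to 420 and from 386 to 499, and without each wild-type array from 487 to 509 and at 567. The 121 probe sets that differed by genotype became 72 after median centring, 44 with a constant of 1, 216 with a constant of 17.3, 77 with only the 8 sorted arrays, 44 without array 1 of both knockout groups, 82 without array 2 of both, and 34 to 99 without each array in turn. The difference of Ins2 in knockout cells reversed to -0.30 without knockout CD80hi array 2 and to -0.39 without array 2 of both knockout groups, a gene without a call throughout. The other alternatives kept these counts within 1.5 times, and the causes of the changes were not tested.

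All 132 named genes with a call kept their direction in every alternative run, and 88 kept the call in every alternative. In each fit without 1 knockout array 107 kept it. The share of calls that were higher was 46.4%, and 43.8% to 51.6% over the alternatives.

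With the replicate number as a block over all arrays, 743 probe sets were higher, 902 lower and 174 differed by genotype, and with a replicate block of the knockout arrays alone 647, 764 and 154. Deviations of same-numbered knockout arrays correlated at 0.517 and those of wild-type arrays at 0.170. The arrays share only a number in the labels, so the fit without the block is reported. With 2 arrays a group, dim probe sets near the added constant have the least certain differences.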
